A study of Mus musculus with 8 samples.

Results

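The proteasome genes were taken as all probes of an Illumina bead array whose gene symbol reads Psm, a letter from a to g and a digit. The rule found 62 probes for 42 genes, among 17850 genes on the array, and used no measured value. The tissue was left ventricle, septum included. It came from 4 heterozygotes and 4 wild types, all of the Swiss Agouti strain and aged 12 months. The heterozygotes carry 1 copy of a knock-in deletion allele. Each mouse gave 1 array, and the labels name no treatment. The sex of the mice, the litters and the array chips were not given in the sources used here, so no batch could be examined. In bulk tissue, fewer cells of a type and less RNA per cell cannot be told apart.

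The proteasome is the protease that degrades proteins tagged with ubiquitin. Its core particle is a barrel in which outer rings of alpha subunits (Psma genes) gate the entrance and inner rings of beta subunits (Psmb genes) hold the catalytic sites. A regulatory cap of ATPases (Psmc genes) and further subunits (most Psmd genes) binds ubiquitin chains, unfolds the substrate and feeds it into the barrel. Under interferon the catalytic subunits Psmb5, Psmb6 and Psmb7 can be replaced by Psmb8, Psmb9 and Psmb10, and the cap by the activator Psme1 with Psme2, which makes the immunoproteasome. In heart muscle the proteasome clears damaged and misfolded proteins and takes part in the turnover of the contractile apparatus.

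The members held 7 alpha ring genes, 7 standard beta ring genes, 5 immunoproteasome genes (Psmb8, Psmb9, Psmb10, Psme1 and Psme2), 6 cap ATPases, 9 other cap subunits and 3 chaperones of cap assembly (Psmd5, Psmd9 and Psmd10). Psme3, Psme4 and Psmf1 are other regulators of the core, and Psme2b is a near copy of Psme2, so that its probe and the probe of Psme2 may share transcripts. Psmc3ip matches the rule by its symbol but encodes a protein of meiotic recombination, not a subunit. A gene counted as measured when a probe was detected, at a deposited detection p under 0.01, on at least 4 of 8 arrays, and 37 of 42 genes were. Detection hardly separated the genotypes. Of the 62 probes, 47 were detected on all 8 arrays and 8 on none. Of the remaining 7, 3 were detected in more heterozygotes, 3 in more wild types and 1 in equal numbers. The unmeasured genes were Psma1 and Psma6 (0 arrays each), Psmc6 (2 arrays), Psmd2 (3 arrays) and Psmb8 (3 arrays). For these a probe at background does not give the level of the transcript. Psma3, for one, had a probe detected on 0 arrays and another detected on all 8. Apart from Psmb8, the unmeasured genes are subunits that every standard proteasome contains.

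By the number of detected probes and the correlation between arrays, 1 mouse stood apart. Of 25697 probes, 11545 were detected in heterozygote 3 and between 10094 and 10809 in the rest. The mean correlation with the other arrays was 0.950 in heterozygote 3 against 0.972 to 0.978 in the rest. The 4 measured cardiomyocyte markers (Myh6, Tnni3, Actc1 and Ryr2) averaged 10.64 in heterozygote 3, the lowest mouse, in normalized log2 intensity. Their mean was between 10.82 and 11.13 in the other mice. Of these markers, 4 of 4 had lower means in heterozygotes (median difference -0.14), none past the test. Markers of several other cell types were high in heterozygote 3. The mean of 6 measured leukocyte markers was 9.22 there, between 6.68 and 7.48 in the other heterozygotes and between 7.01 and 7.78 in wild types, and the mean of 5 lymphocyte markers was 8.30 there and at most 7.13 elsewhere. The means of the adipocyte, atrial and epicardial markers were highest in heterozygote 3 as well, but that of the smooth muscle markers was not. The mean of 3 smooth muscle markers was 10.12 there and 10.69 in wild type 2. The mean of 4 adipocyte markers was 11.20 in heterozygote 3 and between 6.16 and 9.94 elsewhere. That of 4 atrial markers was 13.52 there and between 10.83 and 13.38 elsewhere, and that of 3 epicardial markers 7.83 and between 6.10 and 7.79. The atrial Myl7 and the epicardial Upk3b were higher in wild type 2 (11.99 and 9.37) than in heterozygote 3 (11.96 and 9.09). The atrial Nppa was at 14.51 in both of these mice. All 9 macrophage markers had higher means in heterozygotes (median difference 0.45, none past the test) and were highest in heterozygote 3. Scgb1a1, an airway secretory gene and the sole lung marker measured of 6 listed, was at 13.44 in heterozygote 3 and 12.99 in wild type 1, and between 4.24 and 8.99 in the other mice.

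None of the 37 measured proteasome genes passed the test between heterozygotes and wild types. With limma, 0 of 37 reached an adjusted p under 0.05, as did 0 of all 8146 genes tested (0% of the background). The smallest adjusted p of a member was 0.983. The unadjusted p was under 0.05 in 0 of 37 members, where the background was 4.16% (2.22% higher and 1.94% lower in heterozygotes). In 0 of 37 did all 4 heterozygotes lie on one side of all 4 wild types, where the background was 2.61% (1.66% above and 0.958% below). The intervals show how large a difference the arrays leave possible. The median standard error of a member's log2 difference was 0.15, against 0.18 over all genes, and 26 of 37 members had a 95% interval that lay wholly within 0.5 of 0 on the log2 scale. The intervals of 35 lay within 1 of 0, and the exceptions were Psmd8 and Psmd12.

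Seen as groups, the standard subunits lay slightly to the lower side in heterozygotes. Of 37 members 25 had a negative difference and 12 a positive one, with a median of -0.019, while 46.9% of all genes were negative and 53.1% positive, with a median of 0.014. The 12 measured core genes had a median of -0.064 with 10 lower, the 16 measured Psmc and Psmd genes of the cap and its chaperones a median of -0.034 with 12 lower, and the 4 measured immunoproteasome genes a median of -0.00051 with 2 lower. No test was made of these lists, whose members were chosen with earlier results known. The sign depended on the scaling. With median scaling in place of quantiles the median of all genes moved to 0.156 and only 3 of 12 core genes were below 0, although 10 of 12 remained below the all-gene median, as in the quantile-normalized values. Without heterozygote 3, 18 members were lower and 19 higher, with a median of 0.0025. The median of all genes was then 0.031, and 22 of 37 members lay below it, against 26 with all mice. Of the 12 core genes 10 lay below it, as with all mice, and of the 16 cap genes 9, against 13.

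**Figure D1:**
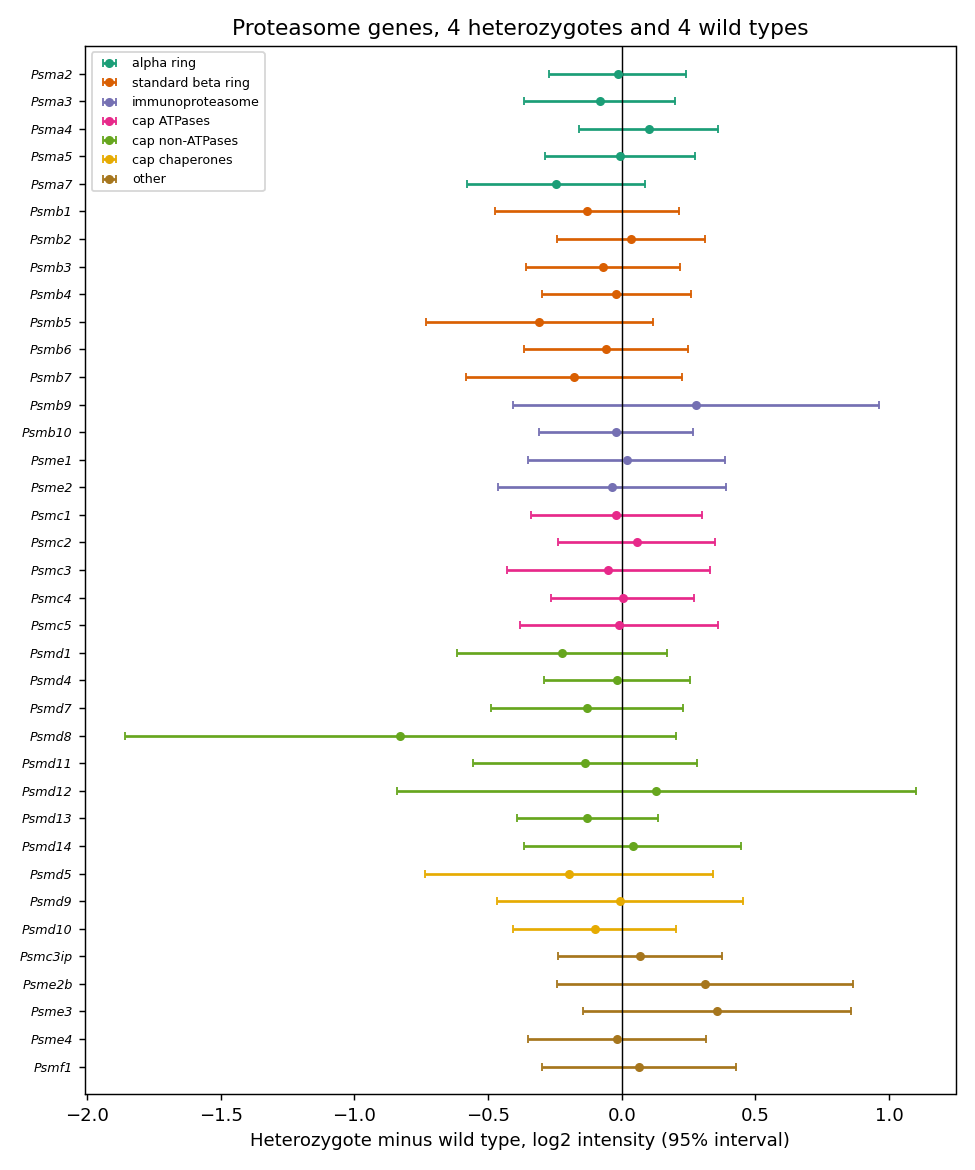
Difference between 4 heterozygotes and 4 wild types for each of 37 measured proteasome genes, ordered by role. The x axis is heterozygote minus wild type in log2 intensity, points are limma estimates and bars are 95% intervals, and colours mark the role (other: Psmf1, Psme2b, Psmc3ip, Psme3 and Psme4). Every interval includes 0, and Psmd8 and Psmd12 have the widest.

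The alpha ring genes, which build the outer rings, had differences between -0.25 and 0.10. Psma2 was at 12.38, 12.29, 12.37 and 12.35 in heterozygotes and 12.24, 12.45, 12.41 and 12.34 in wild types, in normalized log2 intensity. The wild types spanned the heterozygotes, and the difference was -0.015 (95% interval -0.27 to 0.24). Psma3, Psma4 and Psma5 differed by -0.083, 0.10 and -0.0055. Psma7 had the largest difference of the ring, with 10.06, 10.12, 9.84 and 10.13 in heterozygotes against 10.56, 10.03, 10.20 and 10.36 in wild types. Wild type 2 lay among the heterozygotes, so the groups overlapped. The difference of Psma7 was -0.25 (95% interval -0.58 to 0.088, limma adjusted p = 0.983). A second Psma7 probe, nearly as bright, gave -0.11, and without wild type 1 the first probe gave -0.15.

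Among the standard beta ring genes, the catalytic subunit Psmb5 had the largest difference. Psmb5, which carries the chymotrypsin-like site, was at 6.57, 6.42, 5.96 and 6.67 in heterozygotes against 6.51, 6.53, 6.78 and 7.04 in wild types. Heterozygote 3 was the lowest of the 8 and wild type 4 the highest, with the other 6 mice mixed. The difference was -0.31 (95% interval -0.73 to 0.12, limma adjusted p = 0.983), and -0.16 without heterozygote 3. Psmb7, with the trypsin-like site, had 10.65, 11.07, 10.81 and 11.06 in heterozygotes and 11.30, 10.68, 11.36 and 10.96 in wild types. Wild types 1 and 3 lay above every heterozygote and wild types 2 and 4 among them, and the 3 measured Psmb7 probes gave -0.18, -0.075 and -0.22. Psmb6, with the caspase-like site, differed by -0.059. The structural subunits Psmb1, Psmb2, Psmb3 and Psmb4 differed by -0.13, 0.035, -0.069 and -0.020, and Psmb2 was the one gene of this ring above 0, on both of its measured probes.

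Of the immunoproteasome genes, Psmb9 was highest in heterozygote 3, and Psmb8 was brightest in heterozygotes 3 and 2. The deposited mean bead intensity of Psmb9, whose product replaces Psmb6, was 121.3, 77.3, 301.3 and 101.3 in heterozygotes and 83.4, 115.7, 93.3 and 83.2 in wild types. Heterozygote 3 had more than any other mouse, and the other 7 overlapped. After normalization Psmb9 was 8.21 in heterozygote 3, at most 7.05 in the other heterozygotes and at most 7.08 in wild types. The log2 difference was 0.28 (95% interval -0.41 to 0.96, limma adjusted p = 0.990), and it was -0.072 without heterozygote 3. Psmb8, whose product replaces Psmb5, gave deposited intensities of 10.04, 19.0, 36.3 and 8.06 in heterozygotes and 11.1, 8.07, 7.31 and 4.89 in wild types. Its probe was detected in heterozygotes 2 and 3 and in wild type 1 only, at detection p-values of 0, 0 and 0.0038, and it was not tested. Heterozygote 3 was the brightest and heterozygote 2 next, both above every wild type, while heterozygotes 1 and 4 lay among the wild types.

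The other 3 immunoproteasome genes did not share that pattern. Psmb10, whose product replaces Psmb7, was at 9.40, 9.22, 9.43 and 9.33 in heterozygotes and 9.48, 9.45, 9.40 and 9.14 in wild types, with a difference of -0.020. Its second probe gave -0.28, and wild type 4 was the lowest mouse on the first probe and the highest on the second (9.84), so the probes disagree for that mouse. Psme1 was at 11.23, 11.09, 10.70 and 11.24 in heterozygotes and 11.05, 10.78, 11.25 and 11.12 in wild types. It was thus lowest in heterozygote 3, where Psmb9 was highest, and its difference was 0.019. Psme2, its partner in the activator, was highest in wild type 1 (8.11), followed by wild type 4 (7.89) and heterozygote 3 (7.86), and differed by -0.035.

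Within each mouse, the RNA of an inducible subunit was set against that of its standard partner as a difference of log2 intensities. This difference can be compared between mice but not between genes, and the exchange of the proteins was not measured. Psmb9 minus Psmb6 was -3.61, -4.13, -2.50 and -4.34 in heterozygotes and -3.996, -3.91, -4.08 and -3.93 in wild types. Heterozygote 3 lay above all others, and the SD was 0.82 among heterozygotes and 0.076 among wild types. Psmb10 minus Psmb7 was -1.25, -1.85, -1.37 and -1.73 in heterozygotes and -1.82, -1.23, -1.96 and -1.82 in wild types, and its order was mixed. Psmb8 minus Psmb5 was -1.81, -1.19, -0.50 and -2.09 in heterozygotes and -1.58, -1.96, -2.24 and -2.58 in wild types. Heterozygotes 3 and 2 were highest, but the Psmb8 probe was detected on 3 of 8 arrays only.

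**Figure D2:**
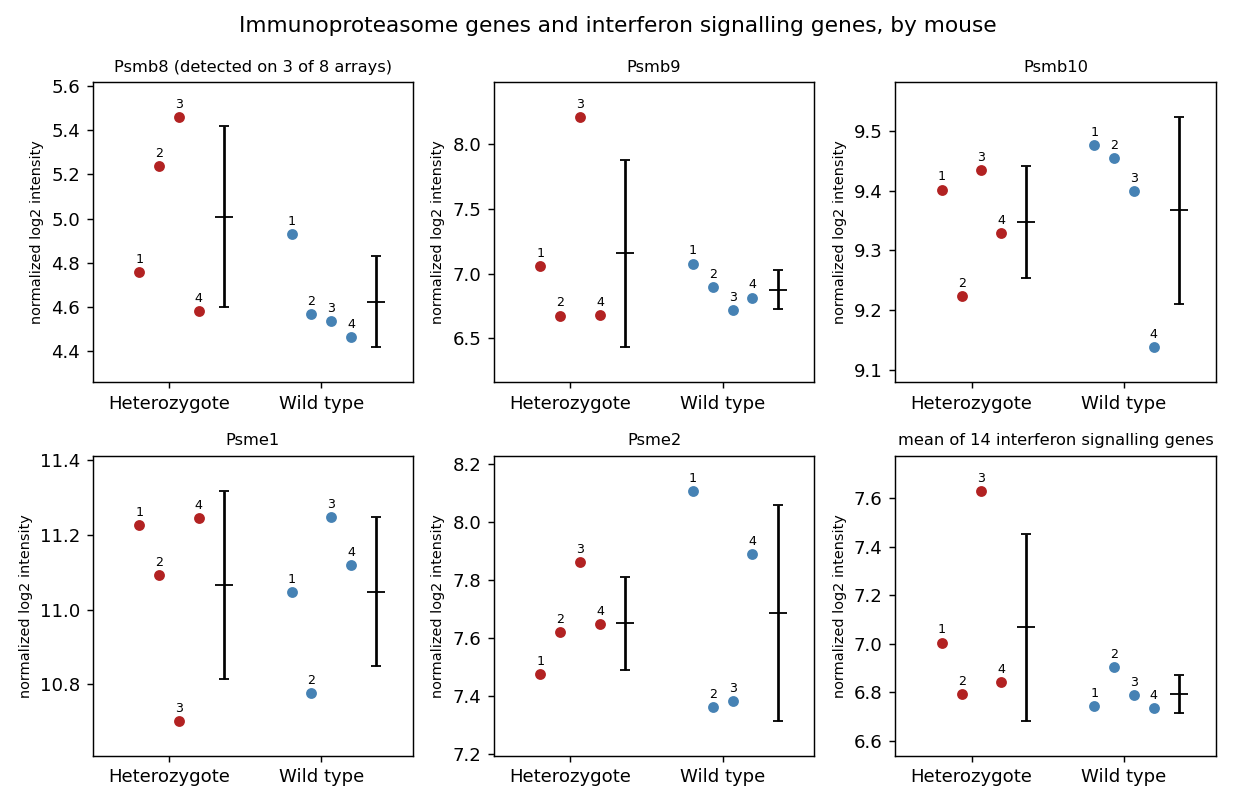
Normalized log2 intensity of Psmb8, Psmb9, Psmb10, Psme1 and Psme2, and the mean of 14 interferon signalling genes, in each mouse (points, numbered by mouse), with the mean and SD of each genotype of 4 mice as a bar. Psmb9 reached 8.21 in heterozygote 3, and the interferon genes were highest in the same mouse at 7.63.

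Genes of the interferon pathway and of peptide loading were read beside these subunits. The mean of 14 measured interferon signalling genes, of 19 listed, was 7.01, 6.79, 7.63 and 6.84 in heterozygotes and 6.74, 6.90, 6.79 and 6.74 in wild types, and 10 of the 14 were highest in heterozygote 3. Isg15, a ubiquitin-like protein that interferon induces, was 7.38 there and between 5.08 and 6.07 in the other 7 mice. Ifit3, another interferon-induced gene, was 9.76 there, at most 7.80 in the other heterozygotes and at most 7.995 in wild types. Gbp6, a GTPase that interferon gamma induces, was at 6.09, 5.71, 6.60 and 5.96 in heterozygotes and 5.13, 5.54, 5.75 and 5.34 in wild types, and its difference of 0.65 had an unadjusted p of 0.011 and a limma adjusted p of 0.983. B2m, the light chain of MHC class I, was 12.96 in heterozygote 3 and between 11.29 and 11.75 elsewhere. Of the 14 interferon genes 12 had positive differences with a median of 0.24, and 0 passed the test. Of 6 measured peptide loading genes, B2m among them, 3 were higher and 3 lower, and 3 of the 6 were highest in heterozygote 3. Calr and Tapbp were highest in wild type 1 (8.75 and 5.73), against 8.03 and 5.40 in heterozygote 3. Tapbp and Tapbpl differed by -0.29 and 0.34. The means of the leukocyte, lymphocyte, macrophage, adipocyte, atrial and epicardial markers given above were highest in heterozygote 3, as was the airway marker Scgb1a1. The mean of the smooth muscle markers was highest in wild type 2. In wild type 2 the atrial and epicardial means (13.38 and 7.79) came close to those of heterozygote 3 (13.52 and 7.83). Of 5 thymocyte markers 3 were detected on no array, Rag1 on 1 array and Ptcra on 2. The part of these marked tissues and cells in the levels of Psmb8 and Psmb9 was not tested.

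The promoters of both pairs are shown because the inducible subunits Psmb8 and Psmb9 were highest in heterozygote 3 and their standard partners were not. Each sequence, from RefSeq on GRCm38.p6, is the 300 bases around the start of the gene, and Psmb8 and Psmb9 are neighbours on chromosome 17, with Tap1 between them. Capitals mark matches on either strand to TGACNNNGC (the core of the antioxidant response element, bound by Nfe2l1 and Nfe2l2), the core of the interferon-stimulated response element (GAAA, any pair of bases, GAAA), TTCNNNGAA (gamma-activated site) or CCAAT.
Psmb9 (chr17:34187281-34187580, minus strand): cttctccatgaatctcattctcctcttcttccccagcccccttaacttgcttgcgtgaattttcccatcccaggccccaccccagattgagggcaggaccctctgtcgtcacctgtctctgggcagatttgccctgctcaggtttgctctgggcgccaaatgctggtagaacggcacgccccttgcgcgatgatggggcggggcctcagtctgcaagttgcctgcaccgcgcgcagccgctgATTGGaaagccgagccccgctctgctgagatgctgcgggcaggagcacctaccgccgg
Psmb8 (chr17:34197945-34198244, plus strand): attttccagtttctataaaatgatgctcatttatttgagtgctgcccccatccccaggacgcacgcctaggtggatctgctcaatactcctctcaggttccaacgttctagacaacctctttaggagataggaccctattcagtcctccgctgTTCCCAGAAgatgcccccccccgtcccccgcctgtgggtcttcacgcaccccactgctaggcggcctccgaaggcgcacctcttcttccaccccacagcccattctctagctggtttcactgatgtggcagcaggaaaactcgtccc
Psmb6 (chr11:70525107-70525406, plus strand): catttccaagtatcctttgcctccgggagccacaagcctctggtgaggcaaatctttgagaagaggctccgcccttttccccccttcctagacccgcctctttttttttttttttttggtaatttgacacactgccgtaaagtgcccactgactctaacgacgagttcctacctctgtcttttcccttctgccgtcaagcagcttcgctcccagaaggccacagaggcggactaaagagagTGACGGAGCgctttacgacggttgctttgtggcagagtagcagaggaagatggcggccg
Psmb5 (chr14:54617946-54618245, minus strand): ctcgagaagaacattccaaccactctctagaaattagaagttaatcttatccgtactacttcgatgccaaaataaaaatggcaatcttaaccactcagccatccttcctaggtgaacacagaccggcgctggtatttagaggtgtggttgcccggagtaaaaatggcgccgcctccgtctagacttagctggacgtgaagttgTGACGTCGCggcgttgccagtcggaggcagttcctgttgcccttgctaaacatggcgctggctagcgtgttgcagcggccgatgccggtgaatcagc
The Psmb6 and Psmb5 windows each hold an antioxidant core, beginning 9 and 47 bases before the start. The Psmb8 window holds a gamma-activated site that begins 97 bases before the start, and the Psmb9 window holds a reversed CCAAT box 8 bases before it. None of the 4 windows matched the interferon-stimulated core, which says only that these letters are not in them. Promoters were matched for 37 of 42 members. The antioxidant core occurred in 16.2% of them and in 3781 of 27025 genes with a promoter in the table. The interferon-stimulated core occurred in 10.8% of the member promoters and 3.99% of all. Its 4 members were Psmb3, Psmd4, Psmd9 and Psme1, of which only Psme1 is an immunoproteasome gene. The gamma-activated site occurred in 5.41% of the member promoters and 9.55% of all, and CCAAT in 37.8% and 41.1%.

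The cap ATPases, which unfold substrates, had differences between -0.049 and 0.056, and 4 of 5 were lowest in heterozygote 3. Psmc3 was at 10.50, 10.47, 9.87 and 10.62 in heterozygotes and 10.39, 10.43, 10.47 and 10.38 in wild types. Heterozygote 3 lay below all others, the wild types lay close together, and the difference was -0.049 (95% interval -0.43 to 0.33). Psmc5 had the same shape, with 10.64, 10.45, 9.91 and 10.34 in heterozygotes against 10.38, 10.29, 10.26 and 10.45 in wild types, and a difference of -0.011. Psmc1 and Psmc2 were lowest in heterozygote 3 as well, at 8.70 and 11.41, and differed by -0.019 and 0.056. Psmc4 did not follow them (10.24 in heterozygote 3) and differed by 0.0034. Over the 10 pairs of these 5 genes the median Pearson correlation across the 8 mice was 0.59, against 0.0105 over all pairs of genes and 0.096 over the 66 pairs of core genes. That is a description of 8 arrays, with heterozygote 3 among them, and no p is attached to it. A dimmer probe of Psmc5 was the only measured member probe on which the genotypes did not overlap, with 8.12, 8.97, 8.96 and 8.90 in heterozygotes and 9.21, 9.01, 9.01 and 9.01 in wild types. Heterozygote 1 was far below the rest on this probe, and the other heterozygotes lay just below the wild types. The probe's difference of -0.32 did not pass when each probe was tested on its own (limma adjusted p = 0.946). The brighter probe did not show the separation, and heterozygote 1 was the highest mouse on it (10.64). Over all genes, each by its brightest probe, the genotypes did not overlap in 2.61%.

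The other cap subunits held the member with the largest difference. Psmd8, a subunit of the lid of the cap, was at 6.02, 8.40, 8.25 and 8.26 in heterozygotes against 8.70, 8.32, 8.74 and 8.49 in wild types. Heterozygote 1 was far below every other mouse, and its deposited intensity was 48.2, against 300.0, 310.8 and 347.7 in the other heterozygotes and between 284.1 and 428.8 in wild types. The difference was -0.83 (95% interval -1.86 to 0.20, limma adjusted p = 0.983), and -0.26 without heterozygote 1. The array holds a single Psmd8 probe, so the low value has no check on a second probe.

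Psmd12, another lid subunit, also varied widely between mice, though less than Psmd8. Its bright probe gave 9.68, 8.37, 9.26 and 9.06 in heterozygotes and 9.83, 7.63, 9.29 and 9.11 in wild types, low in mouse 2 of each genotype, and the dimmer probe gave 6.21 and 5.90 in those mice and between 5.50 and 6.82 in the others. On the dimmer probe heterozygote 3 was the lowest instead, so the probes disagree on the order of mice. The difference was 0.13 (95% interval -0.84 to 1.10) on the bright probe and 0.0041 on the dimmer one. Without wild type 2 the bright probe gave -0.32.

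The remaining cap genes had small differences. Psmd1, the large scaffold of the cap, differed by -0.22 and was lowest in heterozygote 3 (5.99), and became -0.096 without that mouse. Psmd7, Psmd11 and Psmd13 of the lid differed by -0.13, -0.14 and -0.13, and the ubiquitin receptor Psmd4 by -0.019. Psmd14, the deubiquitinase of the lid, was at 7.88, 7.91, 7.84 and 7.93 in heterozygotes and 7.64, 7.59, 7.75 and 8.40 in wild types. Wild type 4 lay above and the other wild types below all heterozygotes, and the difference was 0.042. The assembly chaperones Psmd5, Psmd9 and Psmd10 differed by -0.20, -0.0054 and -0.10. The Psmd5 probe was dim (mean deposited intensity 14.3 in heterozygotes and 15.7 in wild types) and was detected on 5 of 8 arrays. The dimmest probe of Psmd10 gave -0.43, at an unadjusted p of 0.038 and a limma adjusted p of 0.946 among probes. It was the 1 of 51 measured member probes below 0.05 unadjusted, against 494 of all 10547 probes tested. Heterozygote 1 was the lowest mouse on this probe, at 5.51. The other heterozygotes lay between 6.05 and 6.23 and the wild types between 6.19 and 6.56.

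The largest positive differences lay in regulators outside the standard cap. Psme3, a nuclear activator of the core, was at 9.14, 9.15, 8.72 and 8.82 in heterozygotes against 8.66, 8.94, 8.86 and 7.94 in wild types. Wild type 4 was low and the rest overlapped. The difference was 0.36 (95% interval -0.15 to 0.86, limma adjusted p = 0.983), and 0.13 without wild type 4. Psme2b was at 6.48, 6.60, 6.203 and 6.47 in heterozygotes against 6.66, 5.36, 6.34 and 6.14 in wild types, low in wild type 2. Its difference of 0.31 (95% interval -0.24 to 0.87) became 0.057 without that mouse, so each of these 2 differences was carried largely by 1 wild type. Psme4, an activator that does not use ATP, differed by -0.019. The inhibitor Psmf1 differed by 0.064 on its bright probe and -0.24 on a dim one detected on 6 of 8 arrays. This was the sole disagreement in sign among 12 members with several measured probes. Psmc3ip differed by 0.069.

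**Figure D3:**
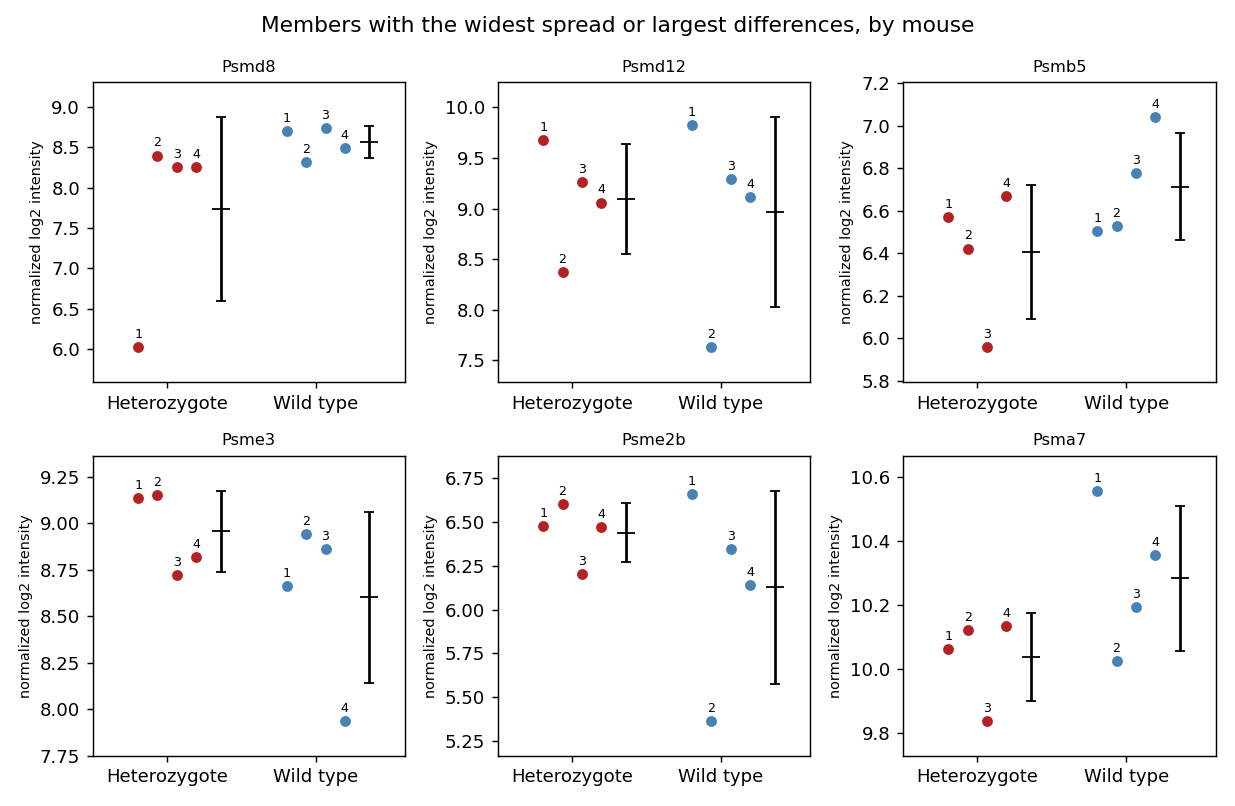
Normalized log2 intensity of Psmd8, Psmd12, Psmb5, Psme3, Psme2b and Psma7 in each mouse (points, numbered by mouse), with the mean and SD of each genotype of 4 mice as a bar. Psmd8 is low in heterozygote 1 (6.02), Psmd12 and Psme2b are low in wild type 2 (7.63 and 5.36), and Psme3 is low in wild type 4 (7.94).

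Across mice the members had a smaller median spread than all genes. The median SD over the 8 mice was 0.21 for the 37 members and 0.26 for all 8146 genes. Psmd8, Psmd12 and Psmb9 had the largest SD, at 0.88, 0.72 and 0.51. Heterozygote 3 was the lowest of the 8 mice for 13 of 37 members, and for 27.4% of all genes. It was lowest for 4 of 5 cap ATPases, 3 of 7 standard beta ring genes (Psmb2, Psmb3 and Psmb5) and 3 of 8 other cap subunits (Psmd1, Psmd7 and Psmd11), and 1 of 5 alpha ring genes (Psma7), and also for the activators Psme1 and Psme4. It was the highest mouse for 2 members, Psma4 and Psmb9, and for 20.7% of all genes.

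**Figure D4:**
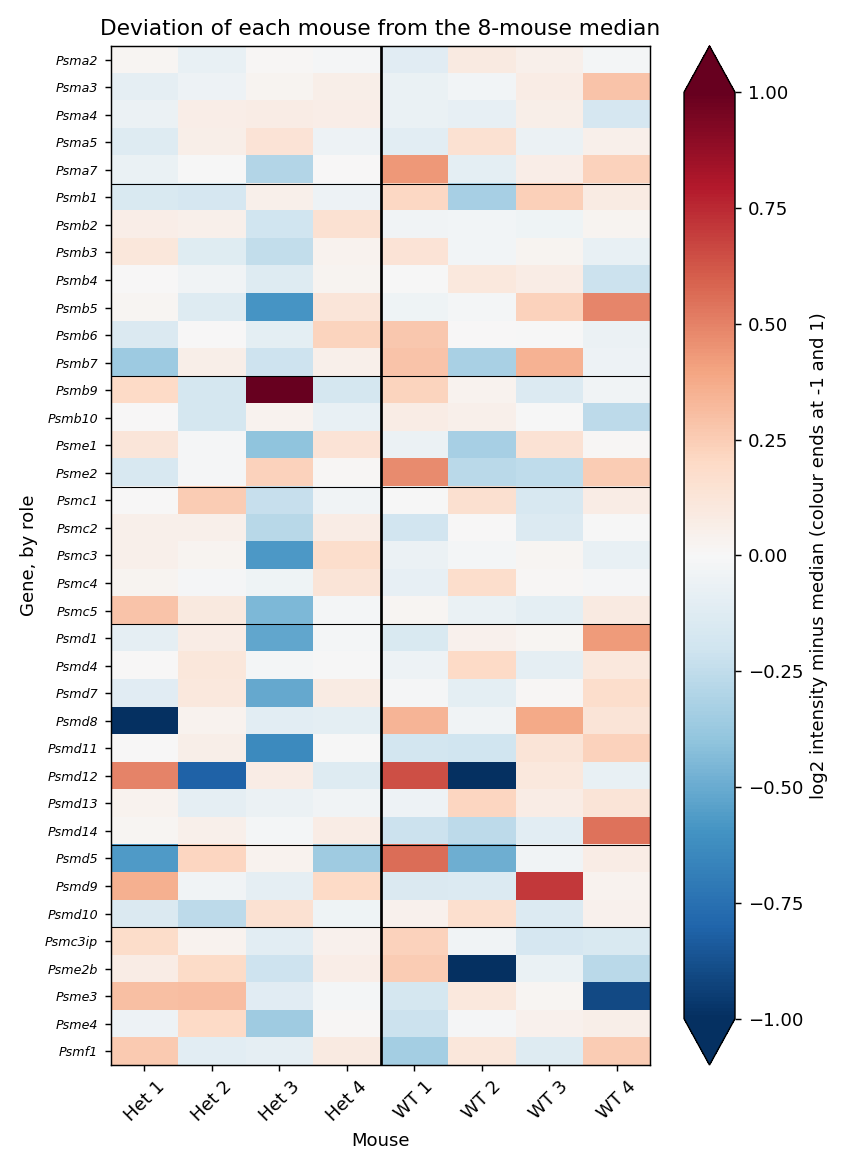
Deviation of each mouse (columns) from the 8-mouse median of each of 37 measured members (rows, ordered by role), in normalized log2 intensity, with the colour scale ending at -1 and 1. Heterozygote 3 shows Psmb9 far above and several Psmc and Psmd genes below the median, and other dark cells mark Psmd8 in heterozygote 1, Psmd12 in heterozygote 2 and wild type 2, Psme2b in wild type 2 and Psme3 in wild type 4.

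Genes that act with the proteasome under other symbols did not pass the test either. Of 3 measured chaperones of core assembly, which the array lists under older symbols, 3 were lower, with Psmg1 at -0.24, Psmg2 at -0.21 and Psmg3 at -0.056. Psmd6, a lid subunit listed under an older symbol, differed by -0.086. Of 6 measured proteasome-associated genes 4 were higher and 2 lower, with the ubiquitin receptor Adrm1 at 0.11, the core maturation factor Pomp at 0.10, the small cap subunit Sem1 at -0.14 and the adaptor Ecpas at -0.50. Of 4 measured genes that control transcription of proteasome genes 2 were higher and 2 lower, with a median of -0.0011. Among them Nfe2l1, which drives this transcription when the proteasome is impaired, differed by 0.15, and Keap1 by -0.14. Nfe2l1 was at 12.08 in heterozygote 1, between 11.46 and 11.71 in the other heterozygotes and between 11.43 and 11.65 in wild types. Of 11 measured ubiquitin and shuttle genes 8 were higher and 3 lower, with a median of 0.062, and the shuttle Ubqln1 and the segregase Vcp, which extracts ubiquitinated proteins, differed by 0.18 and 0.13. None of these genes passed the test.

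The ubiquitin ligases of muscle, which choose proteins for the proteasome, had the lowest unadjusted p of the pathway. Of 9 measured ligases 7 were lower and 2 higher, with a median of -0.18, and 1 of 9 was below 0.05 unadjusted, against 4.16% of all genes. Trim63, which marks sarcomere proteins for degradation, was at 7.09, 8.31, 7.02 and 7.31 in heterozygotes against 8.66, 8.27, 8.43 and 8.23 in wild types. Heterozygote 2 lay among the wild types and the other 3 heterozygotes below all of them. The difference was -0.96 (95% interval -1.56 to -0.36), with an unadjusted p of 0.0050 and a limma adjusted p of 0.983, so it did not pass over all genes. The ligases Wwp1, Nedd4 and Asb2 differed by -0.24, -0.14 and -0.22.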

How the data were processed

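Left ventricles with septum of 4 heterozygotes and 4 wild types, labelled biological replicates, were run on Illumina bead arrays. Per the file headers, the deposited table gives each of 25697 probes an average bead intensity and a detection p-value on each array. Some 23.0% to 27.2% of the deposited intensity values per array were below 0, so background had been subtracted by then. The detection p-values that the authors deposited come in steps of 1 in 798. The labels' protocols state column extraction with DNase treatment and biotinylated cRNA. How the authors normalized their other deposited table of intensity values, an alternative here, is not stated in the labels.

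Background was corrected with normexp (limma's nec, offset 16), followed by quantile normalization and log2. This pulls dim probes together and removes a shift shared by all genes. A probe needed a detection p under 0.01 on 4 or more of 8 arrays (10547 probes), and the brightest such probe represented each of 8146 genes. Of 18120 symbols, 12036 were current in RefSeq GRCm38.p6, 5207 were synonyms and 877 were left as in the file. Heterozygote minus wild type was tested two-sided with lmFit and eBayes, with Benjamini-Hochberg adjustment over all genes at 0.05. The code was tested on simulated data. The number of arrays, 4 per genotype, limits the precision. The software was limma 3.58.1 under R 4.3.3, with Python 3.11.15 for tables and matplotlib 3.10.9 for plots.

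The members, the gene lists and the tests were chosen with earlier results of these data known. Every member may be named. From each other list, the rule allows up to 4 measured genes with the smallest unadjusted p, and genes in the same role as a member. Alternatives were other scalings and background corrections, other filters and rules for choosing a probe, weighted arrays, a block for mouse number, other eBayes options, another threshold, and leaving out mice. The targeted gene is not reported here.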

Additional observations from a re-analysis of the deposited data

Results flagged for a closer look

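Within each genotype, the highest or lowest mouse was singled out where more than 0.829 of the range of the 4 mice (Dixon's 95% critical value) lay between it and its neighbour. There were 6 such cases in 74 groups of member genes, where chance alone would mark about 5% of independent groups. Psmd8 was 6.02 in heterozygote 1, against 8.25 to 8.40 in the other heterozygotes. Psmc2 was 11.41 in heterozygote 3, against 11.74 to 11.76, and Psmd11 was 5.91 in the same mouse, against 6.55 to 6.61. Psma4 was 11.41 in heterozygote 1, against 11.54 to 11.55, and Psmd4 was 11.58 in heterozygote 2, against 11.45 to 11.47. Psmb2 was 10.70 in wild type 4, against 10.63 to 10.65 in the other wild types. The gaps for Psma4, Psmd4 and Psmb2 are small on the log2 scale. Psmb9 in heterozygote 3 fell short of the critical value, because the other heterozygotes differed among themselves (7.05, 6.68 and 6.68).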

How the results depend on the processing

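In limma, no member passed the adjusted threshold in any alternative run, and no other gene did except Slc4a1 (1.40, adjusted p = 0.0285), the 1 gene called without heterozygote 3 and wild type 2. Of 8146 genes, 339 had an unadjusted p under 0.05, but 222 with the replicate block and 1042 with array weights. Of the same 8146 genes, 578 did without heterozygote 2 and 613 without heterozygote 3. The number was 745 without heterozygote 3 and wild type 2, and 538 without heterozygote 3 and wild type 1. With no detection filter it was 797, but of 17850 genes tested. Since no member was called, a change of sign below means only that a small difference crossed 0. Over 776 values of single members under the alternatives, 675 kept their sign and 101 did not, and 11 of 37 members kept it throughout. With the mouse number as a replicate block, 0 members and 0 genes were called and the core median was again -0.064. Mice of the same number did not vary together (correlations of -0.22, -0.25, -0.46 and 0.21), so the number was not read as a pairing.

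Median scaling moved the median of all genes to 0.156 and the core median to 0.067, and these members changed sign: Psma2 0.072, Psma3 0.051, Psma5 0.11, Psmb1 0.038, Psmb3 0.064, Psmb4 0.070, Psmb6 0.11, Psmb10 0.18, Psmc1 0.18, Psmc3 0.12, Psmc5 0.17, Psmd4 0.11, Psmd7 0.053, Psmd9 0.071, Psmd10 0.081, Psmd11 0.018, Psmd13 0.024, Psme2 0.13 and Psme4 0.10. All of these but Psmb10, Psmc1 and Psmc5 still lay below the shifted median. Array weights turned Psmb6 to 0.032, Psmb9 to -0.0029, Psmc1 to 0.047, Psmc3 to 0.10, Psmc5 to 0.082, Psmd4 to 0.020, Psmd12 to -0.027 and Psme4 to 0.028. Cyclic loess turned Psmb10 to 0.0056, Psmc1 to 0.00031 and Psmc5 to 0.027. Psmd9 became 0.045 without normexp and 0.027 in the authors' normalized values, and Psmf1 became -0.087 as a mean over its probes.

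With 1 mouse left out, or heterozygote 3 together with wild type 2 or (chosen after seeing the data) wild type 1, these differences crossed 0. In the core, Psma2 ran from -0.061 to 0.014, Psma5 from -0.088 to 0.042, Psmb2 from -0.010 to 0.11, Psmb3 from -0.12 to 0.034, Psmb4 from -0.088 to 0.050 and Psmb6 from -0.13 to 0.045. Among immunoproteasome genes, Psmb9 ran from -0.072 to 0.44, Psmb10 from -0.097 to 0.021, Psme1 from -0.072 to 0.14 and Psme2 from -0.21 to 0.11. In the cap, Psmc1 ran from -0.11 to 0.11, Psmc3 from -0.13 to 0.12, Psmc4 from -0.032 to 0.076, Psmc5 from -0.11 to 0.14, Psmd4 from -0.062 to 0.048, Psmd7 from -0.20 to 0.0025, Psmd9 from -0.091 to 0.19, Psmd11 from -0.21 to 0.028, Psmd12 from -0.37 to 0.42 and Psmd14 from -0.043 to 0.23. Psme4 ran from -0.10 to 0.091 and Psmf1 from -0.040 to 0.16. The cause of these changes was not tested.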
